A study of Mus musculus with 24 samples.

Results

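The genes described here encode the proteins of the cytosolic ribosome. They were taken as every row of the deposited gene table whose symbol is Rpl or Rps with a number and at most 1 further letter, or Rplp0, Rplp1, Rplp2 or Rpsa. The rule gave 79 of 24007 rows, 47 for the large subunit (Rpl and Rplp) and 32 for the small subunit (Rps and Rpsa). It leaves out genes such as Fau and Rack1, which also encode ribosomal proteins but carry other names. The rule uses names and no measured value, but it was set with earlier results of these data known.

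The libraries came from Id4 knockout (KO) and wild-type (WT) FVB/N female mice, 10 to 12 weeks of age and in estrus. Each replicate pooled the mammary glands of 4 to 8 mice, so no value belongs to a single animal. Live cells without lineage markers were sorted on CD24, CD29 and CD61 as basal, as luminal progenitors (LP) or as mature luminal cells (ML), which gave 6 groups of 4 biological replicates and 24 libraries. The knockout allele is carried by the whole animal, as far as the labels go, and ID4 is an inhibitor of basic helix-loop-helix transcription factors that the mammary gland uses mainly in basal cells. In the sorted cells Id4 ran from 0.931 to 10.9 CPM in KO basal cells and from 13.3 to 86.2 CPM in WT basal cells, and no luminal library had more than 7 counts of it. CPM are counts scaled to a common library size.

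A cytosolic ribosome joins a small subunit, which decodes the mRNA, with a large subunit, which forms the peptide bond, and the proteins enter it in fixed proportions. Their mRNAs are among the most abundant of a growing cell, are short, and in mammals start with a C followed by a run of pyrimidines at the very 5′ end (the TOP tract). The mTOR pathway and the RNA-binding protein LARP1 act on that tract, so translation of these mRNAs follows nutrient and growth signals more closely than their amount does. In the mammary gland, protein synthesis rises steeply towards lactation, and sorted virgin glands show the level from which it starts.

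Library totals ran from 3098425 to 7246443 counts, and 3 counts correspond to between 0.414 and 0.968 CPM. Between 13.5% and 35.1% of a library's counts lay in mitochondrial ribosomal RNA, and between 11837 and 17388 genes had a count. Basal, LP and ML markers were highest in the libraries labelled so. 4 libraries stood apart. Counts of called ribosomal protein genes in comparisons within a population or a genotype are given with and without them. WT basal replicate 2 had a summed LP marker level of 456 CPM, against 60.9 to 115 CPM in the other WT basal libraries. KO basal replicate 3 had an endothelial marker sum of 206 CPM, against 41.6 to 45.0 CPM in the other KO basal libraries. KO LP replicate 2 had a mature luminal sum of 1474 CPM, against 778 to 1059 CPM in the other KO LP libraries. KO ML replicate 2 had a mature luminal sum of 4078 CPM, against 7688 to 8476 CPM in the other KO ML libraries, and an LP marker sum of 233 CPM, against 32.2 to 128.7 CPM. Replicates are separate pools of mice per the labels, the starting RNA was 0.5 to 2 ng per library and was amplified, and fewer cells of a type cannot be told apart from less RNA per cell in such bulk samples.

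Together the 79 genes took 1.82% ± 0.418 of the counts in KO basal cells and 1.92% ± 0.485 in WT basal cells (SD, n = 4 each). They took 2.24% ± 0.463 in KO LP and 2.73% ± 0.545 in WT LP, and 2.29% ± 0.384 in KO ML and 2.50% ± 0.457 in WT ML (SD, n = 4 each). The ranges of the genotypes overlapped in each population. Single libraries lay between 1.30% and 3.48%. With mitochondrial genes taken out of the denominator they lay between 1.54% and 4.31%. Replicates 3 and 4 averaged 1.59% in basal cells, 2.32% in LP and 2.14% in ML, against 2.15%, 2.65% and 2.65% for replicates 1 and 2, each over 4 libraries.

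**Figure D1:**
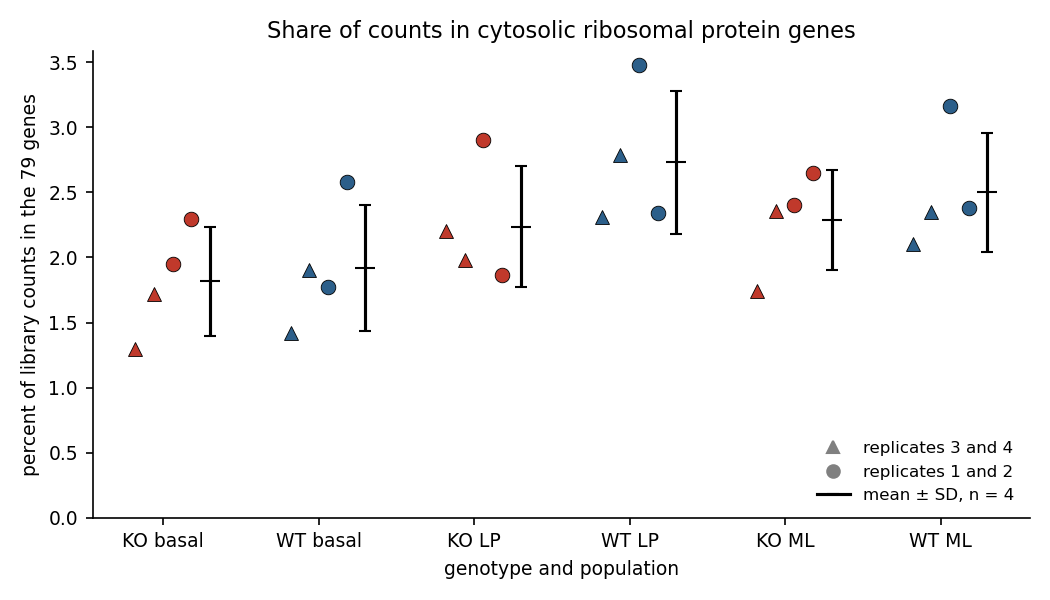
Percent of each library's counts that lay in the 79 ribosomal protein genes (y axis) by genotype and population (x axis), with triangles for replicates 3 and 4, circles for replicates 1 and 2, and black bars for the mean ± SD of 4 libraries. The 24 libraries lie between 1.30% and 3.48%, and the basal groups have the lowest means.

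The genes lay at very different levels. Per kilobase of deposited gene length, Rpl31 (1281 CPM per kb), Rps27 (1273 CPM per kb) and Rpl10 (1067 CPM per kb) were highest as means of the 24 libraries. Rpl31 lines the exit of the peptide tunnel, and Rpl10 is the last large-subunit protein to join, next to the site of peptide bond formation. The median of the 77 genes that passed the expression filter was 310 CPM per kb, and the highest exceeded the lowest, Rpl29 at 10.2 CPM per kb, 125-fold. The 10 genes with the most counts held 32.7% of all counts of the 79. For 50 of the genes the table holds at least 1 processed pseudogene row (symbol with -ps), 162 rows in all, which took 2.55% of the counts of genes and pseudogenes together. Reads shared between near-identical copies are divided by estimation in such a table, so the level of a gene with many copies is uncertain.

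Some members are paralogs with their own pattern. Rpl39l, a testis paralog of Rpl39, had 1 count in total, in WT basal replicate 4. Rps4l had 0.475 CPM on average against 860.1 CPM for its X-linked relative Rps4x, and neither Rpl39l nor Rps4l passed the filter in any comparison. Rps27l, a p53 target and paralog of Rps27, averaged 20.6 CPM against 450.4 CPM for Rps27. It lay between 9.98 and 29.3 CPM in KO basal cells and between 9.03 and 30.2 CPM in WT basal cells, and likewise overlapped between genotypes in LP and ML. Across the 24 libraries Rpl9 was the steadiest gene, with an SD of 0.24 on the log2 scale, and Rpl37a the most variable, with 0.78. Rps27a, which makes a ubiquitin fused to a small-subunit protein, was also steady at 0.34.

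The promoters of these genes are unusual in their first bases, and the windows below are those of 6 genes that fell between replicates of ML, as described later, and of Rps6 and Rps12, which lay above 0 there. RefSeq's promoter table on GRCm38.p6 held 69 entries for 58 of the 79 genes, each with 250 bases before and 50 after the annotated start. A C with at least 4 further pyrimidines, beginning within 5 bases of the start, was found in 30 of the 69 (43.5%) and in 18.3% of all 32851 promoters. The letters CCGGAAG, the core that ETS factors bind, occurred on either strand of 26 of the 69 (37.7%) and of 8.86% of all promoters. Each window holds 30 bases before the annotated start and 15 bases from the start on, and capitals mark each run of at least 5 pyrimidines. Rpl37a lies at chr1:72711230-72711274 (plus strand), Rpl37 at chr15:5116583-5116627 (plus), Rplp2 at chr7:141447621-141447665 (plus), Rps27 at chr3:90213634-90213678 (minus), Rpl41 at chr10:128549154-128549198 (minus) and Rps25 at chr9:44407684-44407728 (plus). Rps6 lies at chr4:86857353-86857397 (minus) and Rps12 at chr10:23787195-23787239 (minus).
Rpl37a: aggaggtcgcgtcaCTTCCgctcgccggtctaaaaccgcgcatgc
Rpl37: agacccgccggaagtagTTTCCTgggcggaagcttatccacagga
Rplp2: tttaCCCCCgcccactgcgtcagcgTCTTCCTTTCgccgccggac
Rps27: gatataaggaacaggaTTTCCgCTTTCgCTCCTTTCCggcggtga
Rpl41: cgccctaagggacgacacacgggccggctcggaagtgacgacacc
Rps25: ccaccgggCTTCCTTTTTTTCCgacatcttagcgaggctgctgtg
Rps6: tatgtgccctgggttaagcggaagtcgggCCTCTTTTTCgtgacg
Rps12: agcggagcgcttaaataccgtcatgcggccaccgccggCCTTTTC
In Rplp2, Rps27 and Rps6 a pyrimidine run crosses the annotated start, in Rps25 the long run lies before it and in Rps12 after it. The start these cells used was not measured. Rps6 and Rplp2 both have the tract at the annotated start. In replicates 3 and 4 of ML Rps6 was higher and Rplp2 lower, as given further on, and the part of the tract was not tested. Of the 18 genes with a promoter entry that were lower in replicates 3 and 4 of ML, 9 had the tract and 8 the ETS core, against 19 and 16 of the other 39 tested genes with an entry.

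The median ribosomal protein gene was lower in basal than in luminal cells in both genotypes. In the main fits the share of these genes called lower exceeded that of all genes in WT and not in KO. A fit of all 24 libraries called 9 of the 77 for KO basal cells against LP and 16 against ML. The KO effect was not called as unlike between populations for any member, so no genotype difference in these contrasts is shown. The percent of counts in these genes overlapped between populations. It was 1.42% to 2.58% in WT basal, 2.31% to 3.48% in WT LP and 2.11% to 3.16% in WT ML libraries. In KO it was 1.30% to 2.30%, 1.87% to 2.90% and 1.74% to 2.65% in the same order. In WT basal cells against WT LP, 12 of the 77 tested genes (15.6%) were lower (edgeR's quasi-likelihood test, Benjamini-Hochberg adjusted p under 0.05) and none was higher, where 6.68% of all 12771 genes tested were called lower. The median log2 fold change of the 77 was -0.47, against -0.03 over all genes, and 73 of the 77 lay below 0. In 16 of the 77, each of the 4 basal libraries lay below each of the 4 LP libraries, a separation seen downwards in 9.76% of all genes (counts of separated genes use CPM scaled over the libraries of the comparison). The 12 genes that fell are Rps6, Rpl5, Rpl23, Rps4x, Rpl6, Rpl3, Rplp0, Rps9, Rpl17, Rps7, Rps13 and Rpsa, 6 of each subunit, and 11 of them have a deposited length of at least 750 bases.

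Rps6, the small-subunit protein that S6 kinase phosphorylates downstream of mTOR, had 537, 440.5, 295 and 395 CPM in WT basal replicates 1 to 4. In WT LP it had 926, 885, 958 and 641 CPM, so the groups did not overlap. It fell by 1.01 on the log2 scale (SE 0.25, adjusted p 0.0103, edgeR). Rpl5, which with Rpl11 and the 5S RNA binds Mdm2, had 717, 739, 572 and 724 CPM in WT basal cells and 1404, 1309, 1265 and 1281 CPM in WT LP. Its replicates were tight in both populations, and it fell by 0.91 (SE 0.19, adjusted p 0.00323, edgeR). Rpl23, another large-subunit protein known to bind Mdm2, had 122, 207, 130.2 and 143 CPM in WT basal cells and 357, 250.3, 244 and 286 CPM in WT LP, and fell by 0.89 (SE 0.21, adjusted p 0.00967, edgeR). Rplp0, the base of the ribosomal stalk, fell by 0.80 (SE 0.19, adjusted p 0.00859, edgeR). Rplp1 and Rplp2, which hang on Rplp0 in the same stalk, were not called. Rpl5 stayed called with each replicate left out, whereas Rps6 was not called without replicate 3 (adjusted p 0.106, edgeR) and Rpl23 without replicate 1 (0.129), 3 (0.0589) or 4 (0.104).

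In WT basal cells against WT ML, 16 of the 77 (20.8%) were lower and none higher (edgeR), where 10.6% of all genes were called lower. The median was -0.35, against 0.01 over all genes. In 13 of the 77 the basal libraries all lay below the ML libraries, as did those of 13.9% of all genes. Rps13 fell most, by 1.12 (SE 0.23, adjusted p 0.00221, edgeR), with 45.2, 81.0, 53.3 and 81.4 CPM in WT basal cells and 142, 129.9, 150.4 and 164 CPM in WT ML. Rps28, near the mRNA exit channel of the small subunit, had 29.995, 80.8, 22.4 and 29.6 CPM in WT basal cells and 59.9, 93.7, 90.8 and 87.2 CPM in WT ML. The 80.8 CPM of basal replicate 2 reached into the ML range, and Rps28 fell by 0.99 with an adjusted p of 0.0489 (edgeR). Rps6 fell by 0.95 (SE 0.25, adjusted p 0.0101, edgeR). Rps13 stayed called with each replicate left out. Rps28 was not called without replicate 1, 3 or 4 (adjusted p 0.120 to 0.243, edgeR), with DESeq2 (0.0536) or with scaling factors computed without these genes (0.0608), and Rps6 not without replicate 3 (0.0952) or 4 (0.0914). The basal column of both comparisons is the same 4 libraries, so they are not independent of each other.

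Both counts turned on single replicates. Without WT basal replicate 2 they were 41 of the 77 against LP and 35 against ML, and the 12 and the 16 genes called with it were all among them. Leaving out replicates 1, 2, 3 and 4 of all populations in turn gave 4, 23, 4 and 3 genes against LP, and 10, 27, 5 and 2 against ML. With replicates 3 and 4 alone the counts were 20 and 31, and with replicates 1 and 2 alone both were 0.

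The same contrasts were made in KO mice. In KO basal cells against KO LP, 3 of the 77 (3.90%) were lower (edgeR), where 6.69% of all genes were called lower. The median was -0.25, and 6 of the 77 were separated downwards, where 10% of all genes were. Rps6 had 375, 367, 355 and 346 CPM in KO basal replicates 1 to 4 and 722, 524, 1124 and 882 CPM in KO LP, and fell by 1.10 (SE 0.32, adjusted p 0.0279, edgeR). Rpl10 had 606, 599, 337 and 527 CPM in KO basal cells and 1119.7, 1002, 1054 and 1067 CPM in the KO LP libraries, and fell by 0.96 (SE 0.24, adjusted p 0.0107, edgeR). The third, Rps7, which is mutated in a few people with Diamond-Blackfan anemia, fell by 0.92 (adjusted p 0.0446, edgeR). In KO basal cells against KO ML, 5 of the 77 (6.49%) were lower (edgeR), where 7.51% of all genes were called lower. The median was -0.29, and 10 of the 77 were separated downwards, where 12.9% of all genes were. Rps7 fell by 1.19 (SE 0.30, adjusted p 0.00872, edgeR) and Rps6 by 1.15 (adjusted p 0.0177). Rpl39 and Rplp0 were also called. Without replicate 4 both counts were 0, and without replicate 3 they were 1 and 7. Without KO basal replicate 3 and KO LP replicate 2 the count against LP was 4, with 2 of the 3 genes among them, and Rps7 was not called (adjusted p 0.0699, edgeR). The count against ML was 6 without KO basal replicate 3 and 4 without KO ML replicate 2, with 4 of the 5 genes among them each time. Against LP, Rps7 was not called with any of the replicates left out (adjusted p 0.0728 to 0.133, edgeR), nor Rps6 without replicate 1 (0.0716) or 3 (0.123).

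Rps27 stood on the other side in basal cells against ML without passing the test. It had 497, 733, 545 and 679 CPM in KO basal cells against 499, 418, 152 and 188 CPM in KO ML, and 429, 1113, 345 and 508 CPM in WT basal cells against 455, 463, 187 and 150.1 CPM in WT ML. On this scale KO basal replicate 1 was level with KO ML replicate 1, and the WT groups overlapped. The log2 fold changes of 1.07 in KO and 0.97 in WT had adjusted p of 0.0630 and 0.0846 (edgeR). Between the luminal populations no member was called (edgeR). For WT LP against WT ML 11.5% of all genes were called either way, 1 member had an unadjusted p under 0.05 where 23.5% of all genes did, and voom with sample weights called 19 members while DESeq2 called none. The smallest p belonged to Rpl23a, with 779, 658, 568 and 599 CPM in WT LP and 559, 485, 304 and 268 CPM in WT ML (log2 fold change 0.70, adjusted p 0.126, edgeR), before Rps28 (-0.64) and Rps13 (-0.41). For KO LP against KO ML 5.67% of all genes were called, and 1 member had an unadjusted p under 0.05 where 16% of all genes did. DESeq2 called none and voom 1, and edgeR called none without KO LP replicate 2 or without KO ML replicate 2. The smallest p there were those of Rpl39 (-0.58, adjusted p 0.185, edgeR), Rpl34 (-0.51) and Rpl10 (0.39).

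**Figure D2:**
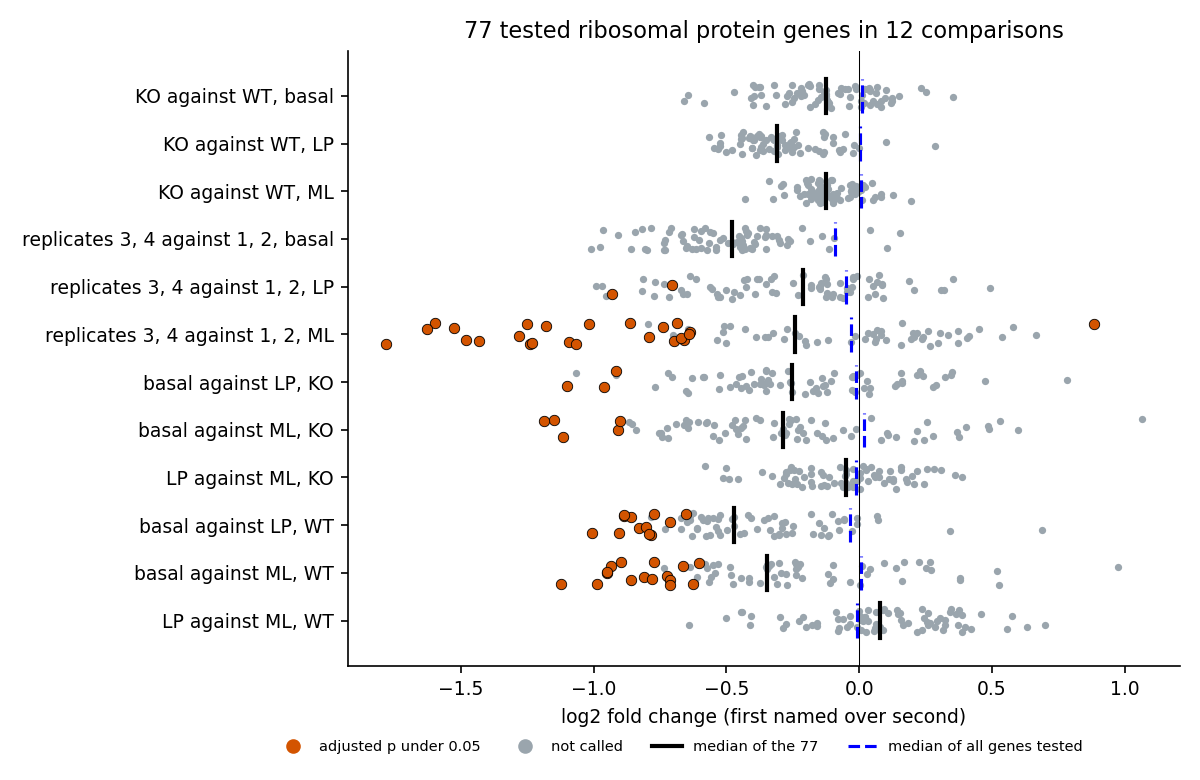
Log2 fold change (x axis) of the 77 tested ribosomal protein genes in 12 comparisons (y axis, the group named before "against" over the group after it), with orange points for an adjusted p under 0.05, grey points for the others, a black bar for their median and a blue dashed bar for the median of all genes. Called genes lie in the basal comparisons and in LP and ML between replicate pairs, and the rows of KO against WT hold none.

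Related genes followed only in part. Where 6.68% of all genes were called lower in WT basal cells than in WT LP, 6 of 19 other TOP mRNAs were (edgeR). These were the elongation factors Eef1a1 (-0.98), Eef1b2 (-0.97) and Eef2 (-0.77), the initiation factor subunits Eif3h (-1.11) and Eif3e (-0.57), and Naca (-0.68), which guards nascent chains. Vim, the mesenchymal filament protein of basal cells, was higher by 3.37. The median of the 19 was -0.54. Of 29 ribosome biogenesis genes 4 were higher in WT basal cells than in WT ML and none was lower (edgeR, median 0.53). This count was at the background, since 14% of all genes were called higher there. The 4 were the box C/D particle protein Nop58 (1.41), the subunit export adaptor Nmd3 (1.12), the pseudouridine synthase Dkc1 (0.95) and the polymerase I factor Taf1d (1.62). Myc, which drives both kinds of gene in many cells, was higher in WT basal cells by 1.45 against LP and by 3.08 against ML. The snoRNA hosts Gas5 (1.01) and Snhg6 (2.63) were higher against ML. Rpl36al, a paralog of Rpl36a outside the naming rule, was lower by 0.90 against LP and by 1.10 against ML. Of 76 tested mitochondrial ribosomal protein genes 2 were lower and 1 was higher in WT basal cells than in WT ML, with a median of -0.54. Over all genes 10.6% were called lower there and 14% higher, so these counts were under the background.

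No ribosomal protein gene passed the test between genotypes. For KO against WT, 0 members were called in basal cells, LP and ML (edgeR), and DESeq2 and voom with sample weights called none either. Over all genes 0% were called in basal cells, 0% in LP and 0.00851% in ML. An unadjusted p under 0.05 was reached by 0 members in basal cells, 2 in LP and 0 in ML, where 3.39%, 3.75% and 3.87% of all genes reached it. The members' median log2 fold changes were -0.12 in basal cells, -0.31 in LP and -0.12 in ML, with 24, 2 and 11 of the 77 above 0, while the medians over all genes were within 0.01 of 0. In LP the mature luminal marker sum moved with genotype, at 778 to 1474 CPM in KO and 459 to 693 CPM in WT libraries, and its part in the LP values was not tested. The sums of the other 11 marker lists overlapped between genotypes in LP, and those of all 12 overlapped in basal cells and ML.

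In LP, where the median was farthest from 0, Rps15a had 281, 339.8, 611 and 391 CPM in KO replicates 3, 4, 1 and 2, against 544, 597, 669 and 536 CPM in WT replicates 3, 4, 1 and 2. KO replicate 1 lay among the WT values, and the log2 fold change of -0.55 (SE 0.24) had an adjusted p of 0.999 (edgeR). Rpl38, which in mouse embryos is needed for translating Hox mRNAs, gave -0.53 and Rpl13a gave -0.57, with the same adjusted p. In Rpl10a, Rplp0 and Rpl5 all 4 KO LP libraries lay below all 4 WT LP libraries on the scaling of the LP libraries, and these were named after their values were seen. These were 3 of the 77, where 1.32% of all genes were separated downwards. On the scaling over all 24 libraries Rpl10a overlapped, with 475 to 533 CPM in KO LP and 513 to 792 CPM in WT LP. Rplp0 had 292, 262, 305 and 255 CPM in KO LP and 316, 313, 365 and 327 CPM in WT LP. In basal cells the smallest p included those of Rpsa (-0.47, SE 0.31), the laminin receptor precursor that sits in the small subunit and of Rpl36a (-0.64), each with an adjusted p of 0.998 (edgeR). In ML the smallest p were those of Rps28 (-0.34), Rpl6 (-0.28) and Rpl10a (-0.30), each again at 0.998 (edgeR). No member was separated between genotypes in basal cells or ML. Of all genes, 1.58% in basal cells and 1.39% in ML were separated downwards, and 1.1% and 1.27% upwards.

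The basal median depended on the libraries that stood apart. Without WT basal replicate 2 and KO basal replicate 3 it was 0.30. In that fit 0 members were called, and 11 had an unadjusted p under 0.05, in place of 0 (edgeR). The share of all genes reaching it there was not computed. With replicates 3 and 4 alone the median was 0.06 and with replicates 1 and 2 alone -0.19. In LP it was -0.32 with replicates 3 and 4 and -0.29 with replicates 1 and 2, and leaving out each library in turn gave -0.43 to -0.22. In ML it was -0.17 without KO replicate 2. Between genotypes 0 members were called in each population with any single library left out (edgeR). Gene by gene, the KO differences in replicates 3 and 4 and in replicates 1 and 2 had a Spearman correlation of -0.35 in LP, -0.18 in basal cells and -0.05 in ML (n = 77 genes measured in the same libraries, a description). No member was called for a difference of the KO effect between populations. These fits called no gene at all, so they do not show that the effects were alike. The members' medians were -0.21 for LP minus basal, -0.02 for ML minus basal and -0.19 for LP minus ML. Of the 77, 62, 40 and 68 lay below 0 in that order. In the fit of all 24 libraries 0% of all genes were called for each of LP minus basal, ML minus basal and LP minus ML, no member reached an unadjusted p under 0.05, and 6.96%, 6.89% and 1.32% of all genes did. DESeq2 called no member in these differences either. The smallest p were those of Rpl13a (-0.67, adjusted p 0.815, edgeR) for LP minus basal, Rps7 (0.46) for ML minus basal and Rpl38 (-0.61) for LP minus ML.

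A further difference lay between replicates. In ML, 23 of the 77 were lower in replicates 3 and 4 than in replicates 1 and 2 with genotype in the model (edgeR), where 2.72% of all 12249 genes were called lower. Rps6 was the only member called higher, where 2.29% of all genes were. In 30 of the 77 all 4 libraries of replicates 3 and 4 lay below all 4 of replicates 1 and 2, a separation that 7.87% of all genes showed, and Rps6 and Rpl21 were separated upwards, as were 6.95% of all genes. The labels give the replicates as biological and name no batch, so what else differed between the replicate pairs is unknown, and p-values measure the spread between these samples. The split was known from earlier results of these data when it was chosen.

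Rpl36 fell most. It had 69.4 and 93.2 CPM in KO ML replicates 3 and 4 and 87.0 and 96.7 CPM in WT ML replicates 3 and 4, against 334 and 228 CPM in KO ML replicates 1 and 2 and 384 and 249 CPM in WT ML replicates 1 and 2. The highest value of replicates 3 and 4 was below the lowest of replicates 1 and 2 in both genotypes. The fall was 1.78 on the log2 scale (SE 0.19, adjusted p 0.000963, edgeR). Rpl37a, a zinc-binding protein of the large subunit, had 78.2 and 100.01 CPM in KO and 121 and 89.1 CPM in WT replicates 3 and 4, against 286 and 274 CPM in KO and 350.2 and 291 CPM in WT replicates 1 and 2. It fell by 1.63 (SE 0.16, adjusted p 0.000956, edgeR), with no overlap. Rpl37, also a zinc-binding protein of the large subunit, fell by 1.60 (SE 0.17, adjusted p 0.000963, edgeR), with 97.1 to 154 CPM in replicates 3 and 4 and 304 to 459 CPM in replicates 1 and 2. These 3 genes stayed called with each library left out in turn.

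The stalk split. Its outer proteins Rplp2 (-1.48, adjusted p 0.00114) and Rplp1 (-1.23, adjusted p 0.00506) fell (edgeR), whereas Rplp0 was not called, with 239 and 369 CPM in KO and 309 and 352 CPM in WT replicates 3 and 4, against 315 and 315 CPM in KO and 302 and 292 CPM in WT replicates 1 and 2. The zinc-binding small-subunit proteins Rps29 (-1.53) and Rps27 (-1.43) fell, as did Rps25 (-1.25), Rps26 (-1.18), Rps15a (-1.09) and Rps16 (-1.07). In the large subunit Rpl41 (-1.28), the smallest ribosomal protein, Rpl13 (-1.24), Rpl23a (-1.02), which receives the signal recognition particle at the tunnel exit, and Rpl24 (-0.86) fell too. The remaining 8 that fell, Rpl18, Rpl19, Rpl28, Rpl32, Rpl31, Rpl22, Rpl7a and Rpl11, lay between -0.79 and -0.64. Of the genes mutated in people with Diamond-Blackfan anemia 6 of 17 fell, close to the share of 23 of 77 among all members.

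Rps6 went the other way. It had 775 and 1539 CPM in KO and 943 and 1117 CPM in WT ML replicates 3 and 4, against 545 and 572 CPM in KO and 658 and 593 CPM in WT ML replicates 1 and 2. All 4 values of replicates 3 and 4 were above the others, with KO replicate 4 far above, and it was higher by 0.88 (SE 0.20, adjusted p 0.0288, edgeR). With each library but KO replicate 3 left out in turn it was not called, at 0.66 to 0.98 with adjusted p of 0.0509 to 0.0990 (edgeR). Rpl21 was separated upwards without being called (0.67, adjusted p 0.0615, edgeR), with 339.7 and 595 CPM in KO and 397 and 426 CPM in WT replicates 3 and 4, against 241 and 291 CPM in KO and 247 and 326 CPM in WT replicates 1 and 2. Rps12 (0.58) was not called. The median over the 77 was -0.24, against -0.03 over all genes, and 31 of the 77 lay above 0, so the genes did not all move one way.

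**Figure D3:**
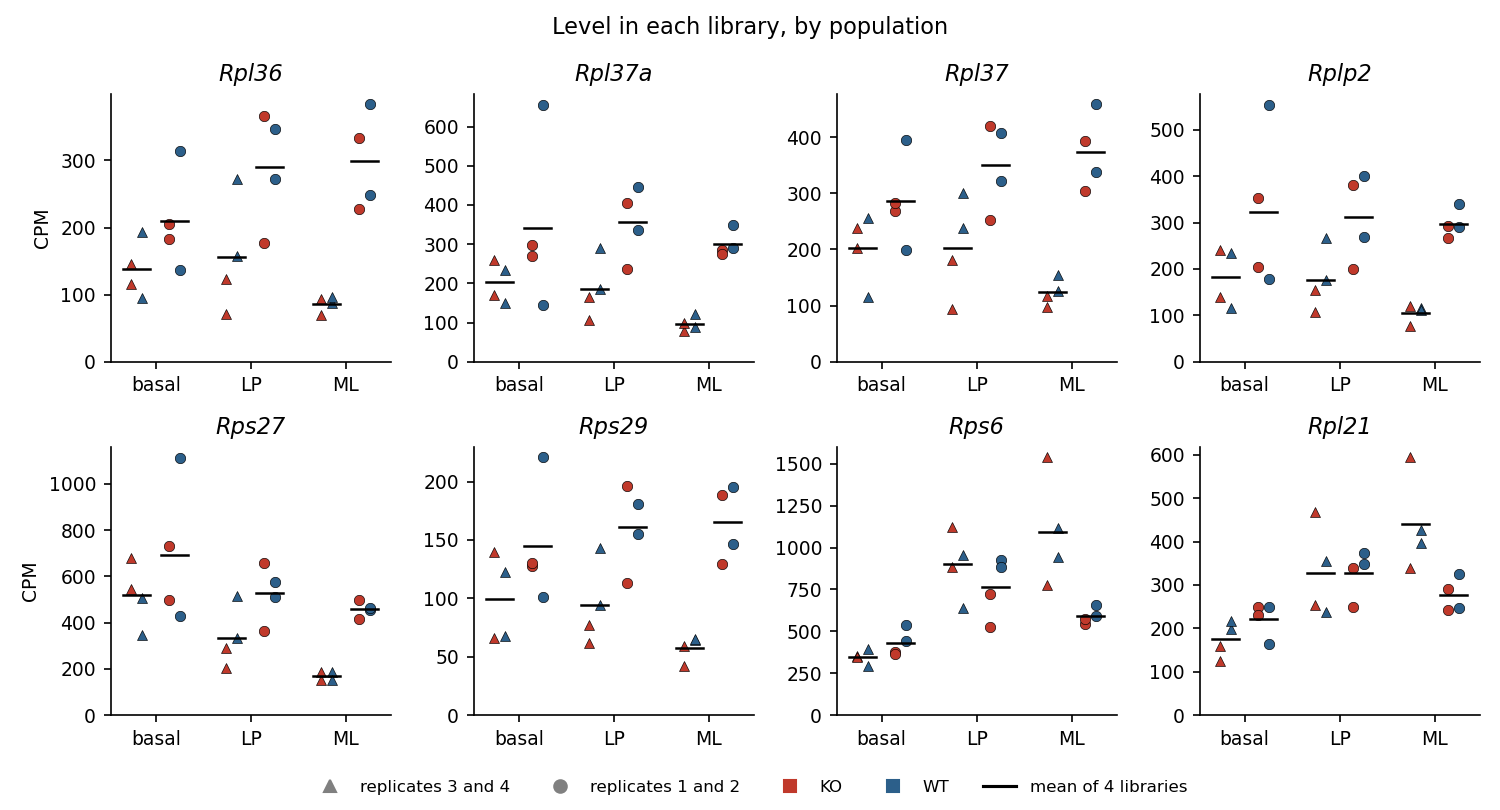
CPM (y axis, from 0) of 8 ribosomal protein genes in each library by population (x axis), with triangles for replicates 3 and 4, circles for replicates 1 and 2, red for KO, blue for WT and a bar for the mean of 4 libraries. In ML the triangles of Rpl36, Rpl37a, Rpl37, Rplp2, Rps27 and Rps29 lie below all circles, while those of Rps6 and Rpl21 lie above them.

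The genes kept much the same order in KO and WT libraries of ML. Computed in each genotype on its own, the ML differences of the 77 genes between replicate pairs had a Spearman correlation of 0.93 between KO and WT libraries. It was 0.62 in LP and -0.04 in basal cells (n = 77 genes of the same libraries, a description). The fitted ML differences had a Spearman correlation of 0.88 with those of LP, which are other libraries with the same replicate numbers, against 0.51 over 10686 genes, and of 0.29 with those of basal cells. All 23 genes that fell in ML also had a fold change below 0 in LP, with a median of -0.66, against -0.11 and 39 of 54 below 0 for the other members. In LP itself 2 were called lower (edgeR), where 0.665% of all genes were. Rpl37a fell by 0.93 (SE 0.23, adjusted p 0.0442, edgeR), with 106 and 165 CPM in KO and 187 and 289.8 CPM in WT replicates 3 and 4, against 404 and 237 CPM in KO and 447 and 337 CPM in WT replicates 1 and 2. Here WT replicate 4 lay above KO replicate 2, so the groups overlapped. Rpl18 fell by 0.71 (SE 0.18, adjusted p 0.0480, edgeR). An unadjusted p under 0.05 with a lower level was reached by 27 members, where 9.18% of all genes reached it, and 2 were separated downwards, where 5.98% of all genes were. DESeq2 called 13 members in LP and voom 7. Marker sums moved with the replicate pairs in LP as well. Luminal markers summed to 2398 to 3571 CPM in replicates 3 and 4 and 1721 to 2320 CPM in replicates 1 and 2, with 1 of 4 called higher. Of all genes 2.88% were called higher there. Basal markers summed to 17.98 to 106 CPM in replicates 3 and 4 and 109.9 to 145 CPM in replicates 1 and 2, with none called. Erythroid sums were 0 to 0.474 CPM in replicates 3 and 4 and 0.538 to 1.21 CPM in replicates 1 and 2, the other 9 lists overlapped, and 2 of 6 cycling markers were called lower (edgeR). The part of these in the LP values was not tested.

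**Figure D4:**
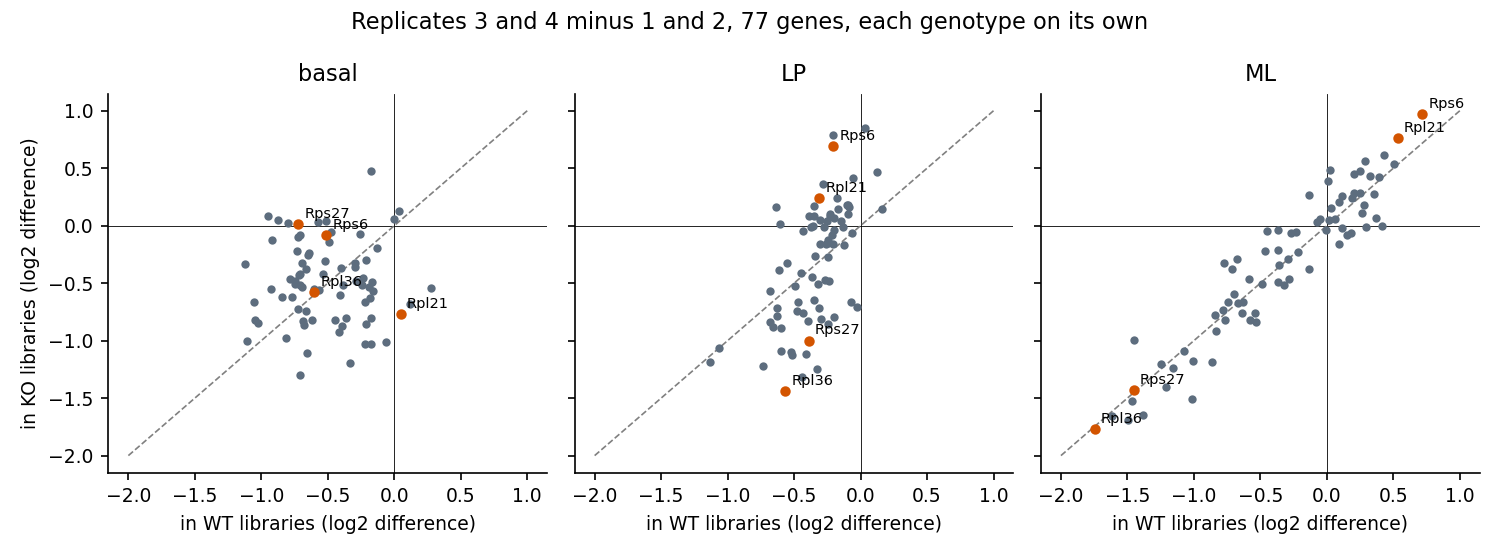
Difference in mean log2 CPM between replicates 3 and 4 and replicates 1 and 2 in KO libraries (y axis) and in WT libraries (x axis) for the 77 genes, with 1 panel per population and a dashed line of equal differences. In ML the genes lie along the line from Rpl36 to Rps6, with a Spearman correlation of 0.93, and in basal cells they do not (-0.04).

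In basal cells 0 members were called between replicate pairs (edgeR; 0 by DESeq2 and voom), as were 0% of all genes. An unadjusted p under 0.05 with a lower level was reached by 11 members, where 3.68% of all genes reached it, and 6 were separated downwards, where 2.94% of all genes were. The median was -0.48, and -0.11 without WT replicate 2 and KO replicate 3. In that fit of fewer libraries 0 members were called and 0 had an unadjusted p under 0.05 (edgeR). Rps2, at the mRNA entry of the small subunit, had 50.9 and 49.6 CPM in KO and 62.9 and 74.8 CPM in WT replicates 3 and 4, against 96.2 and 102 CPM in KO and 93.6 and 156 CPM in WT replicates 1 and 2 (-0.91, adjusted p 0.555, edgeR). Rpl4 (-0.61) and Rpl36a (-0.97) followed, both with an adjusted p of 0.569 (edgeR). No member's pair difference was called as unlike between populations in the fit of all 24 libraries (edgeR), where 0.00683% of all genes were called for LP minus basal, 0.0273% for ML minus basal and 0% for ML minus LP. Unadjusted, 3, 24 and 1 members passed 0.05, where 8.58%, 10.4% and 2.54% of all genes did. DESeq2 called 1 member, Rps6 in ML minus basal, where edgeR gave 1.18 (SE 0.31, adjusted p 0.139). Rpl21 gave 1.04 there.

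The ML count was 14 to 22 members with each library left out in turn, with 18 without KO replicate 2, and was 14 without WT replicate 3, without WT replicate 4 and without KO replicate 1. With only the 4 WT libraries or only the 4 KO libraries no member was called, and 32 and 26 had an unadjusted p under 0.05. The KO ML titles and replicate tags disagree, and with the KO ML libraries placed by tag 0 were called and 27 had an unadjusted p under 0.05. In LP the count of 2 was 0 without each library except WT replicate 4 (7 called) and KO replicate 2 (2 called), and without the other 6 Rpl37a had an adjusted p of 0.0518 to 0.132 and Rpl18 of 0.0637 to 0.146 (edgeR).

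The 23 genes that fell in ML were shorter in the median than the rest. Their median deposited length was 584 bases against 767 bases for the other 54 tested members, 17 of the 23 encode large-subunit proteins, as do 29 of the 54, and 7 in each set are under 500 bases long. By length class the members' median ML difference was -0.91 under 500 bases (14 genes), -0.50 from 500 to 750 bases (30 genes) and 0.05 at 750 bases or more (33 genes). Genes under 500 bases outside the 79 had a median of -0.21 in ML (150 tested, 12 lower and 5 higher), and those under 1 kb a median of -0.20 in ML and -0.21 in LP. Of all genes 2.72% were called lower and 2.29% higher in ML. Across genes the ML difference had a Spearman correlation with deposited length of 0.32 in the 77 and 0.17 in 11090 genes. With coding length it was 0.36 and 0.08, and with GC content -0.15 and -0.37 (a description, all from the same 8 libraries). How much of the difference goes with length was not tested beyond these values.

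**Figure D5:**
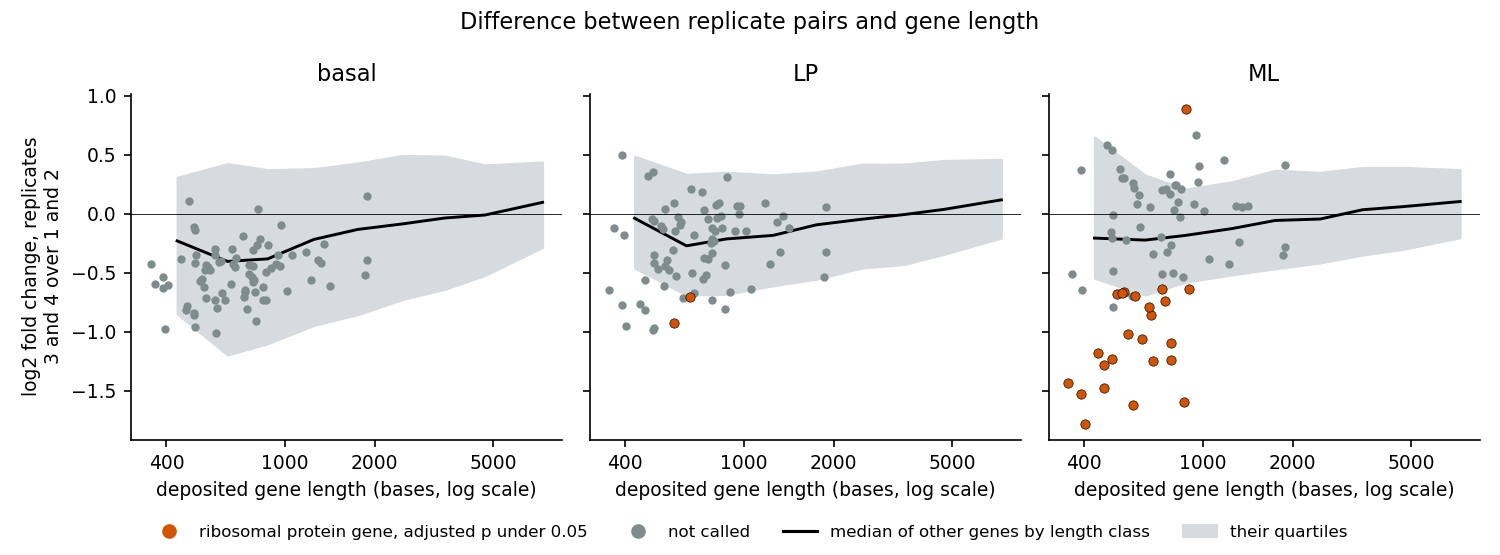
Log2 fold change of replicates 3 and 4 over replicates 1 and 2 (y axis) against deposited gene length in bases (x axis, log scale) for the 77 genes in 3 populations, with orange points for an adjusted p under 0.05, and the median (line) and quartiles (band) of all other genes by length class. In ML the 23 ribosomal protein genes called lower are 354 to 900 bases long, and Rps6 was called higher, at 0.88. The class median of other genes under 500 bases is -0.21.

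Other measures that moved with the replicate pairs in ML were mixed. Mitochondrial ribosomal RNA took 24.1% to 34.4% of the counts in replicates 3 and 4 and 17.7% to 28.1% in replicates 1 and 2. Totals ran from 5051797 to 6798688 counts, against 5866563 to 6958201. Mitochondrial mRNA separated the pairs, with 3.06% to 4.07% of the counts in replicates 3 and 4, against 2.00% to 2.63%. Genes under 1 kb outside the ribosomal protein genes also did, with 13.0% to 18.3% of the counts, against 9.21% to 10.5%. Their share was thus higher in replicates 3 and 4, though their median fold change was -0.20. Mitochondrial genes of that length were not taken out of this class, so it is not separate from the mitochondrial measures. Pericyte marker sums ran from 73.7 to 104 CPM in replicates 3 and 4, against 109.96 to 178 CPM, while the sums of the other 11 marker lists overlapped between the pairs. The part of any of these in the difference was not tested. Pseudogene rows of the ribosomal protein genes went the other way. Of 38 tested, 7 were higher in replicates 3 and 4 of ML, where 2.29% of all genes were called higher. None was lower, and the median was 1.23, against 0.31 in LP. Adding each pseudogene row to its gene left all 24 calls in place.

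Some other gene lists lay mostly below 0 in ML, where 51.9% of all genes lay below 0. Fold changes were below 0 in 66 of 79 tested short respiratory chain genes, 23 of 29 ribosome biogenesis genes and 59 of 76 mitochondrial ribosomal protein genes, beside 46 of the 77 ribosomal protein genes. Over all genes 2.72% were called lower and 2.29% higher in replicates 3 and 4. Of the short respiratory chain genes 10 were lower and none higher (median -0.45). Of the biogenesis genes, with a median of -0.51, 4 were lower (edgeR), namely Nop10 (-1.40), Rrp1 (-1.13), the polymerase I subunit Polr1a (-0.97) and its activator Ubtf (-0.72). Of the mitochondrial ribosomal protein genes 1 was lower. Of 19 other TOP mRNAs only Hnrnpa1 was called, at -1.19, with a list median of -0.04. In the mTOR list Rheb (1.16), the GTPase that activates mTOR complex 1, and Rictor (0.76) were higher, and Eif4ebp2 (-0.64) and Max (-0.66) were lower. In LP the S6 kinase gene Rps6kb1 (0.98) and Myc (0.90) were higher in replicates 3 and 4 and Rrp1 (-0.84) was lower (edgeR). No initiation factor subunit of the TOP list and none of the 6 ribosomal proteins outside the naming rule was called.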

How the data were processed

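The authors deposited estimated counts (expected counts) per gene and library, not normalized, made with tools that the submitters' processing notes list as cutadapt, STAR, RSEM and the mm10 build. Versions, settings and strandedness are not stated. The labels name polyA RNA, amplified cDNA (NuGEN Ovation) and no molecular identifiers, so limits from counts cover counting error only. Counts were rounded to whole numbers. Libraries of 1 group differed beyond counting noise (lowest chi-square per degree of freedom 18.95), and the 25 rows with no symbol stayed in the tests.

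Tests used R 4.3.3 and edgeR 4.0.16 (quasi-likelihood, TMM scaling, default expression filter, two-sided, Benjamini-Hochberg over all genes tested, threshold 0.05). KO against WT was fitted on the 8 libraries of a population, replicates 3 and 4 against 1 and 2 on the same 8 with genotype as a term, populations on the 12 libraries of a genotype, and differences between populations on all 24. DESeq2 1.42.0 and voom with sample weights (limma 3.58.1) were alternatives, with other filters, scalings and left-out libraries. The fits of 1 replicate pair alone and those without the libraries that stood apart were chosen after seeing the data. Levels of single genes are CPM scaled over all 24 libraries. The procedure was tested on simulated data. Differences of each genotype on its own used log2(CPM + 0.5). Coordinates, coding lengths and GC content came from GENCODE and RefSeq tables on GRCm38 (mm10).

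Named genes are the 3 called genes with the largest change in each direction (or, with none called, the 3 smallest p), the extremes of level and spread, the stalk, paralogs and a few fixed genes. Genes beyond these are named where they were called. A gene that the rule picks is not reported here, though counts include it. The members, the lists and the replicate split were chosen with earlier results of these data known. Same-numbered libraries of the groups compared had correlations of -0.0002 to 0.303 after group means were removed, not all over 0.1 in any comparison. Even so, the same number gave the best match for 4 of 4 replicates in KO against WT basal and ML. That also held for WT LP against ML. It was 2 of 4 for KO basal against LP and against ML, and 3 of 4 in the other comparisons. The main fits did not pair the numbers, and counts with the replicate number as a block are given further on.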

Additional observations from a re-analysis of the deposited data

Results flagged for a closer look

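In groups of 4 libraries, a value was singled out where its gap to the nearest library exceeded 0.829 of the group's range. This happened in 14 of 240 tests over 39 genes and the share of counts, and chance gives about 1 in 20. In WT basal cells replicate 2 stood alone for Rpl39 (0.892 of the range), Rps28 (0.870) and Rpl30 (0.839), replicate 3 for Rpl5 (0.869) and replicate 4 for Rpl39l (1), which had a single count. The LP marker sum of replicate 2 was 456 CPM, and its part in these values was not tested. In KO LP replicate 1 stood alone for Rpl36a (0.950) and Rpl39 (0.914), and replicate 3 for Rpl4 (0.966) and Rps4l (0.854). In KO ML replicate 4 stood alone for Rps19 (0.945), Rps28 (0.850) and Rps4x (0.834), and replicate 1 for Rps4l (0.880). In WT LP replicate 1 was the only one apart for Rps4l (1), a gene of 67 counts in all libraries together.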

How the results depend on the processing

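For replicates 3 and 4 against 1 and 2 in ML, the 24 called members became 14 to 22 with each library left out, and 0 with WT libraries alone, with KO libraries alone or with the KO ML libraries placed by replicate tag. In LP the 2 became 13 with DESeq2, 15 with no expression filter, 7 with voom, 0 to 7 with each library left out, and 0 with no genotype term, WT libraries alone or KO libraries alone. WT basal against LP (12) gave 3 to 23 with each replicate left out, 32 with voom, 0 with replicates 1 and 2 alone, 20 with replicates 3 and 4 alone and 41 without WT basal replicate 2. WT basal against ML (16) gave 2 to 27, 34, 0, 31 and 35 in the same order. KO basal against LP (3) gave 0 to 3 with each replicate left out, 5 with DESeq2 and with no filter, 1 with voom, 0 with replicates 1 and 2 alone, 1 with replicates 3 and 4 alone and 9 in a fit of all 24 libraries. KO basal against ML (5) gave 0 to 7, 9 with no filter, 8 with voom, 0, 3 and 16. WT LP against ML (0) gave 19 with voom and 7 with replicates 3 and 4 alone, and KO LP against ML (0) gave 1 with voom. The difference of the pair effect between populations (0) gave 1 with DESeq2 and 1 with no filter. With the replicate number as a block, counts were 22 for WT basal against LP, 23 for WT basal against ML, 1 for WT LP against ML, 8 for KO basal against LP and 13 for KO basal against ML, and the KO counts stayed at 0. KO medians left out 1 library at a time ran from -0.24 to 0.17 in basal cells, -0.43 to -0.22 in LP and -0.17 to 0.04 in ML. Without mitochondrial genes in the denominator the share of counts was 2.32% in KO basal, 2.48% in WT basal, 2.98% in KO LP, 3.59% in WT LP, 3.31% in KO ML and 3.52% in WT ML. Adding pseudogene rows and scaling without these genes moved no count by over 1.5 times. The causes were not tested, apart from the smaller number of libraries in fits that leave some out.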
